A study of Procotyla fluviatilis with 12 samples.

Results

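The 100 contigs described here are abundant transcripts of the freshwater planarian *Procotyla fluviatilis* whose levels differed most between pools of worms of the same kind. They were chosen among the 149594 contigs of a de novo transcriptome, a set of sequences assembled from the reads alone, which the files pair with no gene name. A level is given as CPM, the reads of a contig over all reads of its library, scaled to 1000000 reads. A contig had to average at least 20 CPM over 12 libraries, which 8552 did, and its 4 group means had to lie within 4-fold of each other, which left 8254. These were ranked by the variance of log2(CPM + 1) within a group, averaged over the 4 groups, and the first 100 were taken. Variances, group means and everything computed from the same levels are therefore descriptions of the choice and carry no test.

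RNA was sequenced from tissue of adult worms collected in the field and kept briefly at 18 °C, with 3 libraries in each of 4 groups, and each library was made from a pool of 3 worms. The Reg+ amputated libraries hold tissue excised just behind a cut made in front of the pharynx, a site from which worms regenerate, 24 hours after the cut. The Reg+ uncut libraries hold tissue of the same place in intact worms. The Reg- amputated libraries hold tissue excised just behind a cut made behind the pharynx, a site from which worms do not regenerate, also at 24 hours, and the Reg- uncut libraries hold tissue of that place in intact worms. No genotype or strain is labelled, and whether pools of a group were collected or cut on separate days is not given in the sources used here, so any spread between pools may be technical. Each library is 1 pool, 1 excision and 1 preparation, and these cannot be told apart.

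Planarians rebuild missing parts from neoblasts, the dividing stem cells of the body. *P. fluviatilis* is a predatory species that does not regenerate from the Reg- site described above. In a pool, a transcript that is very high in a single worm and one that is moderately high in every worm give the same reading. In such bulk tissue, fewer cells of a type and less RNA per cell cannot be told apart either. Because the contigs carry no names, no role is given to any of them.

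Libraries held 22038256 to 31266924 reads, of which 96.5% to 97.1% were assigned to 1 contig alone. Over 41058 contigs with at least 1 CPM, 11 of 12 libraries resembled most, among the other groups, the group that differs from their own in both region and treatment. The exception was Reg- amputated replicate 3, with mean Spearman correlations of 0.8969 with Reg- uncut, 0.8967 with Reg+ amputated and 0.8956 with Reg+ uncut. Libraries of Reg+ amputated had mean correlations of 0.952 to 0.960 with Reg- uncut and of 0.857 to 0.877 with Reg+ uncut. Whether whole groups were exchanged was not tested and cannot be told from these files. Every group name and every difference between amputated and uncut below therefore stands as labelled. Reg- amputated replicates 1 and 3 were also the pair of same-group libraries farthest apart, with a chi-square per degree of freedom of 73.1, against 9.68 to 40.2 for the other pairs. The blocks' correlations, their followers and the fitted differences are also given without these 2 libraries.

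The 100 contigs fell into 2 blocks of contigs that went up and down together, of 38 and 59 contigs, with 3 contigs left over. Blocks were formed from each contig's deviations from its own group means, so that a difference between groups could not create them. Members were joined by average linkage and divided where 1 minus the Pearson correlation over 12 libraries reached 0.3. Within the 38-contig block the median correlation between contigs was 0.969 over 703 pairs, with a lowest value of 0.761. Within the 59-contig block it was 0.991 over 1711 pairs, with a lowest value of 0.676. Between blocks it was -0.415 over 2242 pairs, and the highest was 0.07. Without Reg- amputated replicates 1 and 3, these medians were 0.982, 0.976 and -0.308. The correlations over all libraries share the same 12 libraries and, with group means removed, fewer than 12 free values.

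**Figure D1:**
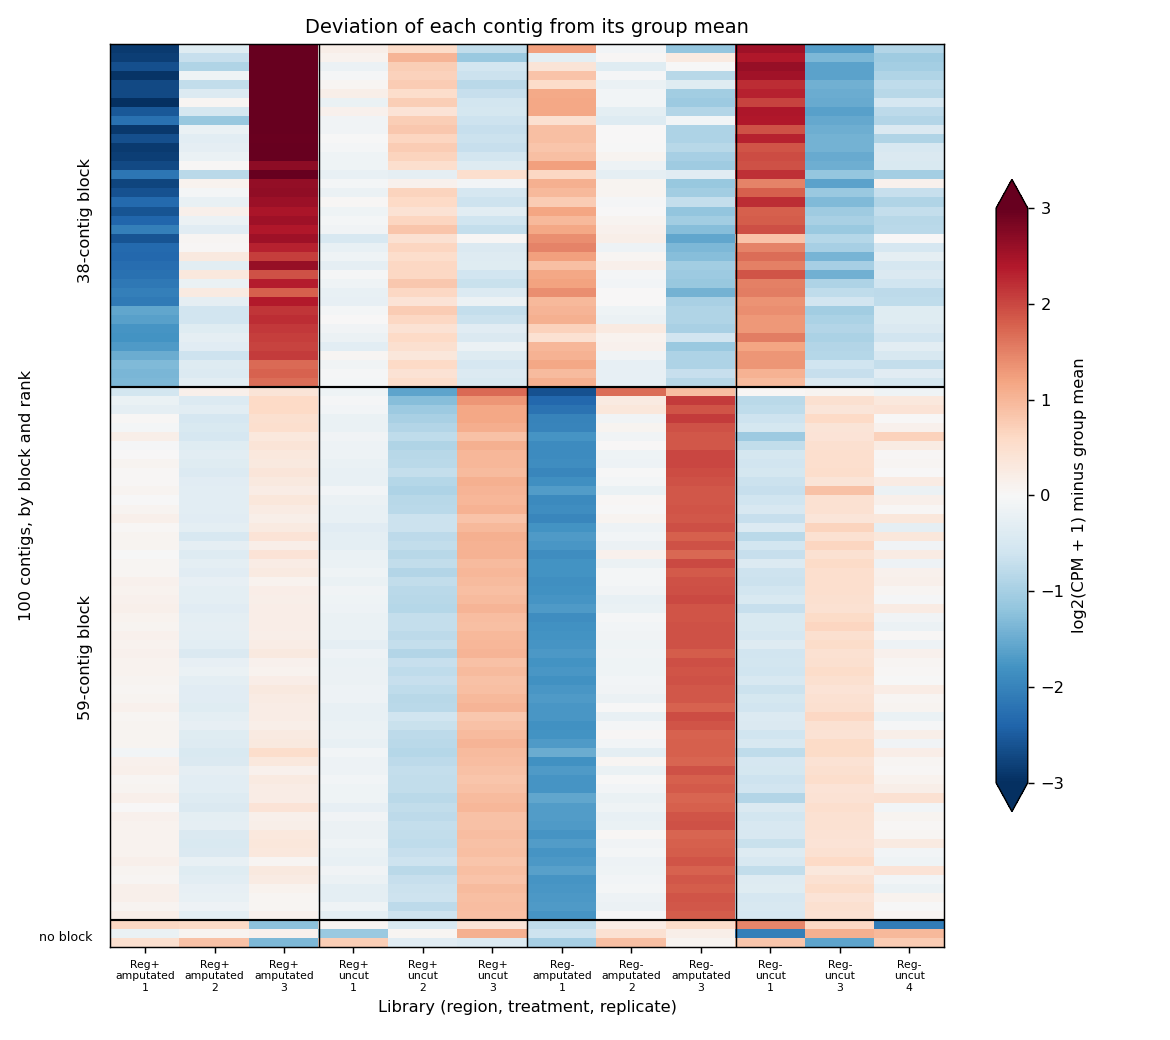
Deviation of log2(CPM + 1) from the mean of the own group for each of the 100 contigs (rows, by block and then by rank) in the 12 libraries (columns, 3 to a group, groups parted by vertical lines). Red is above and blue below the group mean, and colours saturate at 3 log2 units. The 38-contig block is most extreme in Reg+ amputated replicates 1 and 3 and Reg- uncut replicate 1, and the 59-contig block in Reg- amputated replicates 1 and 3.

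The pools that carried the spread were different ones in the 2 blocks. In the 38-contig block, Reg+ amputated replicate 3 gave 33.5% of the sum of squared deviations, Reg+ amputated replicate 1 gave 26.7% and Reg- uncut replicate 1 gave 16.4%. In the 59-contig block, Reg- amputated replicates 3 and 1 gave 37.2% and 35.3%. Over the 8254 contigs that passed both limits, the same Reg- amputated libraries gave 25.9% and 23.0%, and Reg+ amputated replicates 3 and 1 gave 8.67% and 5.25%.

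**Figure D2:**
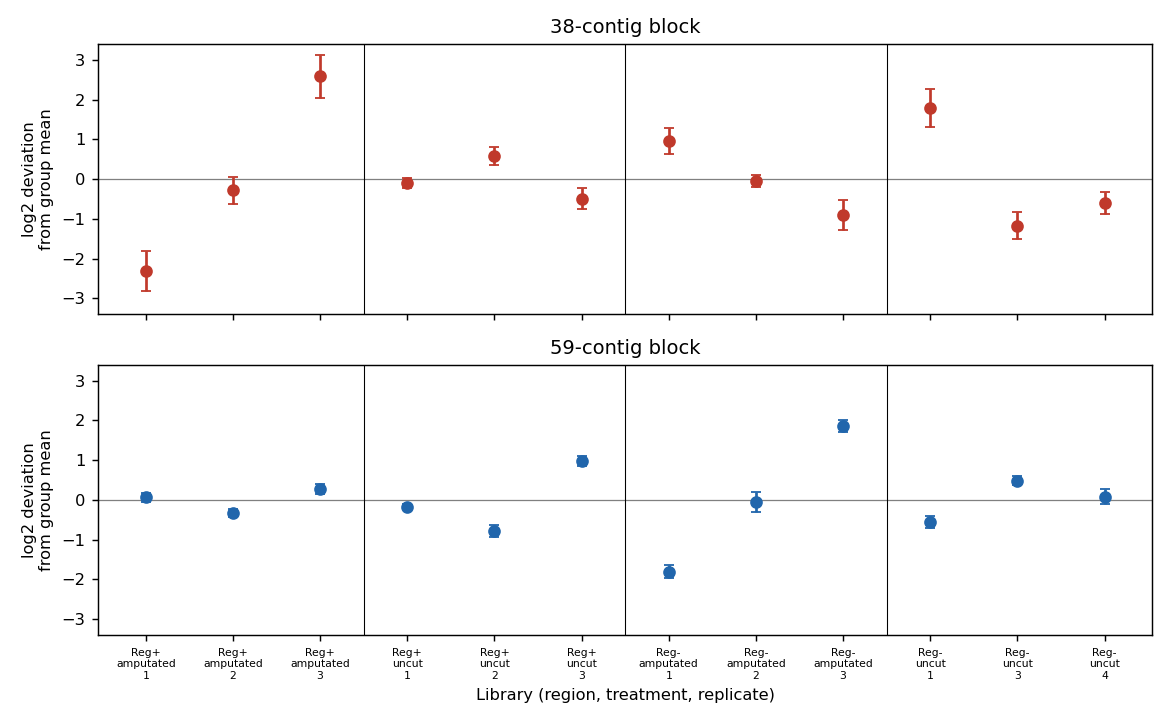
Mean deviation from the group mean, in log2 units, of the 38-contig block (upper panel) and the 59-contig block (lower panel) in each library; bars are the SD over the contigs of the block. The upper panel runs from -2.30 in Reg+ amputated replicate 1 to 2.59 in replicate 3 of the same group, and the lower from -1.81 in Reg- amputated replicate 1 to 1.86 in replicate 3.

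The 38-contig block held the 25 contigs that varied most, and all of the first 10. Its reads made up 0.0343%, 0.211% and 1.74% of the library in Reg+ amputated replicates 1, 2 and 3, against 0.876%, 1.57% and 0.629% in Reg+ uncut replicates 1, 2 and 3. They made up 1.89%, 0.934% and 0.496% in Reg- amputated replicates 1, 2 and 3, against 0.765%, 0.075% and 0.137% in Reg- uncut replicates 1, 3 and 4. The lowest of the 12 pools was thus Reg+ amputated replicate 1, and the highest were Reg- amputated replicate 1 and Reg+ amputated replicate 3. The values of each amputated group overlapped those of its uncut group. All 38 contigs were ordered replicate 1, 2, 3 from low to high in Reg+ amputated pools, with a median fold of 45.3 between replicates 3 and 1 (range 8.58 to 334). In Reg- uncut pools 34 of 38 ran from replicate 3 through 4 to 1, with a median fold of 10.3 between replicates 1 and 3. The order was shared by 35 of 38 in Reg- amputated pools, where replicate 1 was a median of 4.1-fold above replicate 3. In Reg+ uncut pools it was shared by 34 of 38, and replicate 2 was a median of 2.29-fold above replicate 3. Replicate 1 was the lowest pool in Reg+ amputated and the highest in both Reg- groups. Replicate 3 was the highest in Reg+ amputated and the lowest in the remaining 3 groups.

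Among all members, contig145313 (911 nt) had the most reads, with a mean of 3292 CPM over the 12 libraries, or 3613 CPM per kilobase of contig. It stood at 112, 726 and 7117 CPM in Reg+ amputated replicates 1, 2 and 3, against 3843, 7227 and 2582 CPM in Reg+ uncut replicates 1, 2 and 3. It stood at 7623, 4114 and 2134 CPM in Reg- amputated replicates 1, 2 and 3, against 3106, 301 and 613 CPM in Reg- uncut replicates 1, 3 and 4. The lowest of the 12 values and the third highest were both in Reg+ amputated, whose mean of 2652 ± 3880 CPM (SD, n = 3) is smaller than its SD. Next by reads were contig147072 (659 nt), from 43.9 to 3947 CPM, and contig37209 (637 nt), from 21.1 to 1402 CPM. Per kilobase these averaged 2118 and 867 CPM. The lowest of these counts was 659 reads, so that counting error is small beside the spread.

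The highest rank belonged to contig9938 (940 nt), with a mean within-group variance of 4.06 in squared log2 units. Its level was 1.86, 15.2 and 195 CPM in Reg+ amputated replicates 1, 2 and 3, against 43.9, 57.5 and 23.0 CPM in Reg+ uncut replicates 1, 2 and 3. In Reg- amputated replicates 1, 2 and 3 it was 125, 49.6 and 23.0 CPM, against 62.1, 2.48 and 4.91 CPM in Reg- uncut replicates 1, 3 and 4. The Reg+ amputated pools alone spanned the lowest and the highest of the 12 values. A span of 334-fold, the widest of any member, was found for contig101830 (228 nt). It had 10, 118 and 2987 reads in Reg+ amputated replicates 1, 2 and 3, or 0.32, 4.84 and 107 CPM, against 44.5, 85.4 and 18.6 CPM in Reg+ uncut replicates 1, 2 and 3. Unlike contig9938, it was nearly level in the Reg- amputated pools, at 35.1, 44.1 and 52.3 CPM, against 35.5, 1.68 and 2.30 CPM in Reg- uncut replicates 1, 3 and 4. The third in rank, contig34308 (729 nt), shared this feature, with 156, 92.3 and 119 CPM in Reg- amputated pools, against 120, 5.47 and 8.74 CPM in Reg- uncut pools. Its Reg+ amputated pools stood at 2.59, 10.9 and 257 CPM, against 114, 217 and 88.3 CPM in Reg+ uncut pools. The remaining contigs of the first 10 were contig136058 (331 nt), contig38061 (490 nt), contig148201 (210 nt) and contig142839 (234 nt), with 81.1-fold to 163-fold between their highest and lowest libraries.

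The contigs most like the rest of the 38-contig block were contig3454 (1671 nt), contig38061 and contig54952 (598 nt), with mean correlations of 0.975 to the other 37. Levels of contig3454 were 3.93, 27.8 and 190 CPM in Reg+ amputated replicates 1, 2 and 3, against 110, 197 and 87.5 CPM in Reg+ uncut replicates 1, 2 and 3. They were 255, 136 and 62.0 CPM in Reg- amputated replicates 1, 2 and 3, against 87.9, 10.8 and 14.8 CPM in Reg- uncut replicates 1, 3 and 4. Those of contig54952 followed the same course at a lower level, from 1.95 CPM in Reg+ amputated replicate 1 to 89.3 CPM in replicate 3. The contigs of this block moved by unequal amounts. When each contig's deviations were set against the mean profile of the block, slopes ran from 0.64 to 1.29 with a median of 1.01. The ratio of contig3454 to contig38061 went from 2.27 to 11.5 between libraries, while the levels themselves spanned 64.8-fold and 163-fold.

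**Figure D3:**
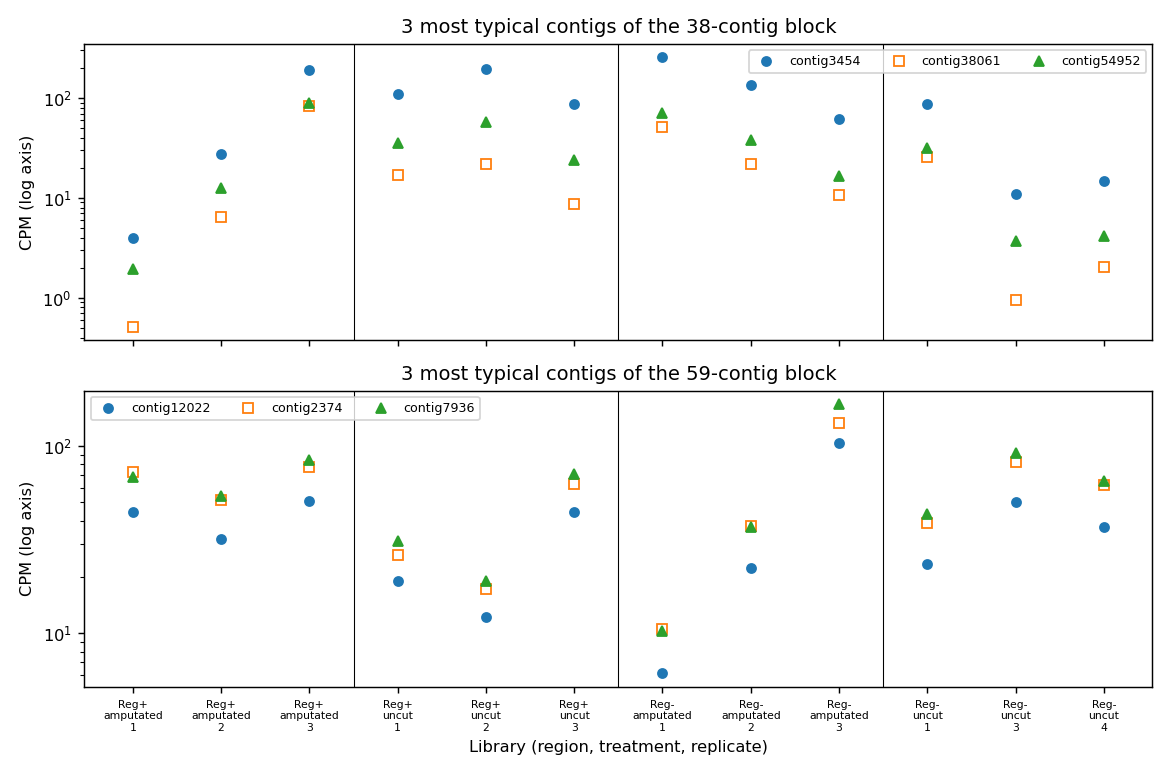
CPM on a log axis in each of the 12 libraries for the 3 contigs with the highest mean correlation to the rest of the 38-contig block (upper panel) and of the 59-contig block (lower panel), 1 point per library. In the upper panel contig3454 spans 3.93 to 255 CPM; in the lower, contig12022 spans 6.11 to 103 CPM.

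The 59-contig block varied less and far more uniformly. In Reg- amputated replicate 3 it held the highest of 12 levels for 58 of 59 contigs, and in Reg- amputated replicate 1 the lowest for all 59, with a median fold of 13.8 between them (range 10.6 to 27.1). Its share of the library was 0.0625%, 0.223% and 0.868% in Reg- amputated replicates 1, 2 and 3, against 0.249%, 0.519% and 0.376% in Reg- uncut replicates 1, 3 and 4. It was 0.436%, 0.331% and 0.478% in Reg+ amputated replicates 1, 2 and 3, against 0.181%, 0.12% and 0.406% in Reg+ uncut replicates 1, 2 and 3. The Reg- amputated pools spanned all other pools. The median fold between the highest and lowest pool was 3.45 in Reg+ uncut (replicate 3 over 2), 2.1 in Reg- uncut (replicate 3 over 1) and 1.49 in Reg+ amputated (replicate 3 over 2). The order of pools was shared by 59 of 59 contigs in Reg+ uncut, 58 in Reg- amputated, 54 in Reg- uncut and 50 in Reg+ amputated.

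The contigs most like the rest of the 59-contig block were contig12022 (3345 nt), contig2374 (1797 nt) and contig7936 (1255 nt). Levels of contig12022 were 6.11, 22.2 and 103 CPM in Reg- amputated replicates 1, 2 and 3, against 23.5, 50.4 and 37.0 CPM in Reg- uncut replicates 1, 3 and 4. They were 44.2, 31.8 and 50.6 CPM in Reg+ amputated replicates 1, 2 and 3, against 19.1, 12.2 and 44.5 CPM in Reg+ uncut replicates 1, 2 and 3. The range within Reg- amputated was wider than over all other libraries together. Levels of contig2374 were 10.6, 37.5 and 133 CPM in Reg- amputated replicates 1, 2 and 3, against 38.9, 81.9 and 61.7 CPM in Reg- uncut replicates 1, 3 and 4. The ratio of contig12022 to contig2374 stayed between 0.577 and 0.776 in all 12 libraries, while their levels spanned 16.9-fold and 12.6-fold. Slopes on the block's profile ran from 0.95 to 1.26, with a median of 0.99, so these contigs rose and fell by nearly equal factors.

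The loosest contig of the 59-contig block was contig5039 (383 nt), named after its values were seen. Its correlation with the rest averaged 0.747. It peaked in another pool than the others, at 4.91, 114 and 67.4 CPM in Reg- amputated replicates 1, 2 and 3, against 66.0, 68.1 and 59.2 CPM in Reg- uncut replicates 1, 3 and 4. In the Reg+ region it stood at 16.7, 28.1 and 33.2 CPM in amputated pools, against 19.0, 6.31 and 70.6 CPM in uncut pools.

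Across the study's groups the blocks ran against each other in 3 of the 4. In Reg+ uncut, Reg- amputated and Reg- uncut, the pool with the highest mean deviation of the 38-contig block had the lowest of the 59-contig block, and the reverse. In Reg+ amputated both were highest in replicate 3. The correlation of the 2 profiles was -0.402 over 12 libraries and -0.297 over the 9 libraries without Reg- amputated. No pair of contigs had a correlation under -0.8, so no complementary pairs were found by that limit. The 3 lowest values, -0.66, -0.66 and -0.64, missed that limit and were picked out afterwards; they were between contig11561 (656 nt) of the 38-contig block and contig139020, contig141963 and contig35270 of the 59-contig block.

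The 3 contigs outside the blocks, named after their values were seen, each had a pattern of its own. Of these, contig105120 (945 nt) stood at 6.14, 13.0 and 16.7 CPM in Reg- amputated replicates 1, 2 and 3, against 70.2, 38.6 and 4.94 CPM in Reg- uncut replicates 1, 3 and 4. In Reg+ amputated pools it had 28.2, 27.7 and 7.11 CPM, against 11.7, 7.85 and 14.9 CPM in Reg+ uncut pools. Its highest and lowest libraries were pools of the same group, Reg- uncut. The level of contig138913 (513 nt) was 11.5, 25.4 and 21.0 CPM in Reg- amputated pools, against 5.46, 55.6 and 51.9 CPM in Reg- uncut replicates 1, 3 and 4. Its Reg+ amputated pools, at 29.2, 35.4 and 36.9 CPM, were close together, against 6.94, 16.8 and 34.8 CPM in Reg+ uncut pools. For contig37234 (253 nt), Reg- amputated pools had 15.0, 58.6 and 32.4 CPM, against 31.1, 5.10 and 29.6 CPM in Reg- uncut pools. That contig stood at 33.2, 44.2 and 8.61 CPM in Reg+ amputated pools, against 51.4, 23.8 and 22.7 CPM in Reg+ uncut pools. The highest correlation of any of the 3 with another member was 0.587.

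Length and the share of uniquely assigned reads were not used by the choice. CPM are not scaled by length, however, so a longer contig reaches 20 CPM with fewer reads per kilobase. Contigs of the 38-contig block were short, with a median of 593 nt (quartiles 266.5 and 821.5 nt), and 31 of 38 (81.6%) were under 1000 nt. Those of the 59-contig block were long, with a median of 2105 nt (quartiles 1830 and 2958.5 nt), and 3 of 59 (5.08%) were under 1000 nt. Among the 8154 other contigs that passed both limits the median was 1338.5 nt (quartiles 776 and 2113.75 nt), and 35.3% were under 1000 nt. The lengths of the 2 blocks thus lay on either side of those of the other contigs. Other contigs past both limits that correlated at 0.9 or more with the 59-contig profile had a median of 1611 nt. Those of 1 to 20 CPM that did so had a median of 765 nt. For the 38-contig profile these medians were 1303 and 571 nt. No test was made, because contigs may be pieces of the same transcript. Of their reads, a median of 99.7% were unique in the 38-contig block, 99.8% in the 59-contig block and 99.5% in the other contigs. Values under 95% were found for 7 contigs (18.4%) of the 38-contig block, 3 (5.08%) of the 59-contig block and 15.6% of the other contigs. Levels of these 10 are uncertain to the extent that reads were shared with similar contigs. The lowest share, 61.4%, was that of contig103194 (232 nt, named after its value was seen), and among the most abundant, contig145313 had 93.9% and contig37209 had 92.3%.

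**Figure D4:**
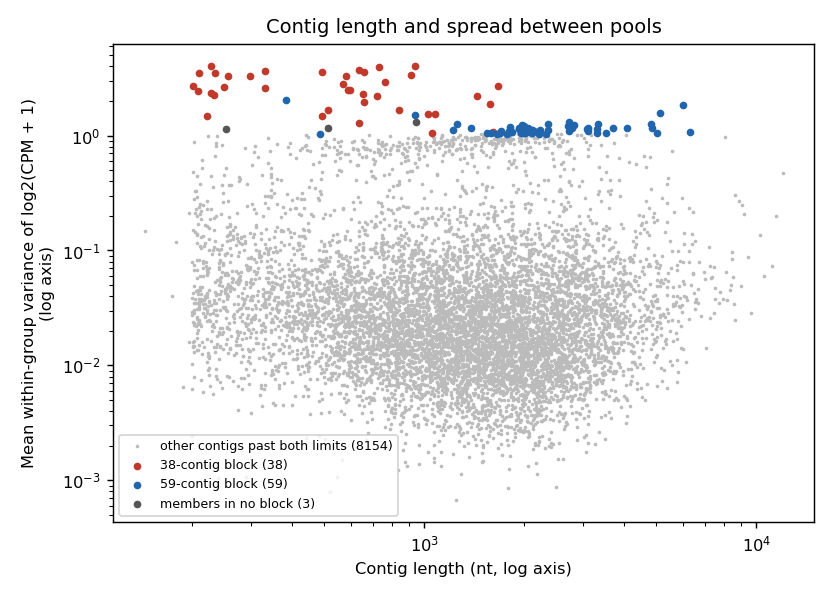
Contig length against the mean within-group variance of log2(CPM + 1), both on log axes, for the 8254 contigs that passed both limits; red points are the 38-contig block, blue the 59-contig block, dark grey the 3 members in no block and light grey the 8154 others. Red points lie mostly under 1000 nt and blue points mostly above, and a band of light grey points continues directly under the members.

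At the edge of the choice the variance fell smoothly. The members ranked 99 and 100, contig148554 (1650 nt) and contig6172 (1771 nt), had variances of 1.0409 and 1.0403, against 1.0397 and 1.0384 for contig142331 (1855 nt) and contig404 (1717 nt), the next 2 below the limit. All 4 followed the 59-contig block, whose profile also went on below the limit. Of the next 100 contigs by rank, 96 had a correlation of at least 0.9 with it, as had 250 of the 300 after those. In all, 584 of the 8154 other contigs (7.16%) followed it and 342 (4.19%) ran opposite to it with a correlation of -0.9 or lower. Among 32506 contigs of 1 to 20 CPM, 4395 (13.5%) followed it. Over the 10 libraries without Reg- amputated replicates 1 and 3, 457 of the 8154 followed the block's profile, 192 ran opposite to it, and 3057 of the 32506 followed it. With a minimum of 10 CPM in place of 20, 19 of the 59 contigs stayed among the first 100.

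The 38-contig block had few followers inside the limits and more outside. Only 14 of the 8154 other contigs (0.172%) correlated with its profile at 0.9 or more, and none at -0.9 or lower. Without Reg- amputated replicates 1 and 3 these counts were 25 and 7. Of the 298 contigs with at least 20 CPM whose group means lay more than 4-fold apart, 22 (7.38%) did so. Their median length was 316 nt, and 17 were under 1000 nt. All 22 had their lowest group mean in Reg- uncut, as had all 38 of the block. The reads of these 22 took 0.00955%, 0.0642% and 0.625% of Reg+ amputated replicates 1, 2 and 3, against 0.343%, 0.531% and 0.266% of Reg+ uncut replicates 1, 2 and 3. They took 0.766%, 0.344% and 0.19% of Reg- amputated replicates 1, 2 and 3, against 0.237%, 0.0203% and 0.0416% of Reg- uncut replicates 1, 3 and 4.

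Whether contigs that vary in some groups also vary in another was read from groups left out of the choice. The 100 contigs were chosen again on 3 groups, and their SD of log2(CPM + 1) was taken in the remaining one. Chosen without Reg+ amputated, they had a median SD of 0.33 there, against 0.12 for the remaining contigs that passed the limits. Without Reg+ uncut the medians were 0.79 and 0.14, without Reg- amputated 0.94 and 0.18, and without Reg- uncut 1.32 and 0.10. In each case 99 or 100 of the 100 lay above the median of the remaining contigs, and 94 to 99 above their upper quartile. Contigs of a block move together, so these are no independent counts. Nor need a left-out group be independent of the others. Pools of the same replicate number in different groups had deviations correlated at -0.235 to 0.803 over the other 8154 contigs. The medians above pool blocks that differed. The choice made without Reg+ amputated held 58 of the 59-contig block, with a median SD of 0.30 there, and 21 of the 38-contig block, with 2.86. Without Reg+ uncut these were 49 with 0.87 and 37 with 0.60, and without Reg- uncut 38 with 0.54 and 35 with 1.67. The choice made without Reg- amputated held 35 of the 38-contig block, with 0.98, but 13 of the 59-contig block, with 1.88.

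**Figure D5:**
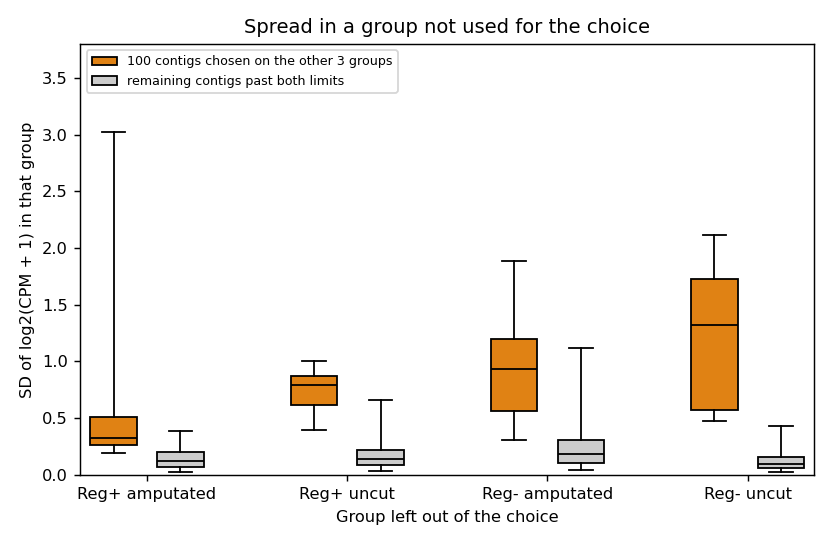
SD of log2(CPM + 1) in the group left out of the choice, for the 100 contigs chosen on the other 3 groups (orange) and for the remaining contigs that passed the limits (grey); boxes are quartiles with the median, and whiskers reach the 5th and 95th percentiles. The orange median is 0.33 against a grey one of 0.12 for Reg+ amputated, 0.79 against 0.14 for Reg+ uncut, 0.94 against 0.18 for Reg- amputated and 1.32 against 0.10 for Reg- uncut.

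The spread between pools was far above counting error. The lowest count of any member in any library was 10 reads, and counting error gave at most 0.398% of a member's within-group variance. No member was without reads in a library, and 2 fell under 1 CPM in any. For comparison, the median SD within Reg+ amputated was 2.50 log2 units in the 38-contig block and 0.12 in the other contigs that passed both limits. Within Reg- amputated it was 1.81 in the 59-contig block and 0.18 in those contigs.

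Differences between the groups were tested with edgeR's quasi-likelihood test on all 62408 contigs with enough reads, at a Benjamini-Hochberg adjusted p under 0.05. None of the 100 was called for any difference among the 4 groups, where 4.08% of all tested contigs were. None was called for Reg+ amputated against uncut, where 6.44% were, for Reg- amputated against uncut, where 2.62% were, or for the difference between these responses (the interaction), where 7.43% were. A choice of contigs with group means within 4-fold and a wide spread sets these counts, so nothing is read from them. The highest group mean was a median of 2.02 times the lowest among the members and 3.29 times in the 38-contig block. That fold was 1.78 in the 59-contig block and 1.23 in the other contigs that passed both limits. An unadjusted edgeR p under 0.05 was reached by 0, 0, 1 and 1 members, and DESeq2 called none. Of all 62408 tested contigs, 6467 reached that unadjusted limit for Reg- amputated against uncut and 14748 for the interaction. The only member to reach it was contig105120, with an interaction of 2.72 on the log2 scale and an adjusted p of 0.164 by edgeR.

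As fitted, the 38-contig block had a median log2 fold change of -0.44 for Reg+ amputated against uncut, with 5 of 38 contigs above 0, and of 1.63 for Reg- amputated against uncut, with 38 of 38 above 0. In the 59-contig block the medians were 0.90, with 55 of 59 above 0, and -0.06, with 19 of 59 above 0. Over all tested contigs they were -0.02 and -0.01. For Reg- amputated against uncut, the median of the 38-contig block was 0.94 without Reg- amputated replicate 1, 2.03 without replicate 3 and 1.37 without both, with 38 of 38 above 0 each time. That of the 59-contig block, -0.06 with all libraries, changed sign to 0.45 without replicate 1. It was -1.35 without replicate 3 and -0.74 without both. Reg- amputated replicates 1 and 3 gave 4.92% and 4.6% of the 38-contig block's squared deviations, against 16.4% for Reg- uncut replicate 1. No median was taken without that Reg- uncut pool, so how far the 38-contig block's value rests on it is not shown. No member passed the test, the group means hang on single pools, and contigs that move together are no independent count. Calls for the interaction depended on Reg- amputated replicate 3. Without it 28 members were called, all of the 59-contig block and all with the higher response in Reg+. Their fitted differences ran from 2.22 to 2.74 on the log2 scale with edgeR adjusted p of 0.0169 to 0.0498. In that fit 19.3% of all contigs were called, and the median over all contigs was -0.14. The pool left out gave 37.2% of the 59-contig block's squared deviations, on which the choice was made, so nothing is read from these calls. Without replicates 1 and 3 together, 1 Reg- amputated library is left, assumed to vary like the other groups. The median fitted interaction was then 1.63 in the 59-contig block and -1.90 in the 38-contig block, against 0.95 and -2.01 with all libraries.

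Whether the 38-contig block passed both limits hung most on 2 pools. Without Reg+ amputated replicate 3, only 2 of the 38 passed them, and without Reg- uncut replicate 1 none did. In both cases no contig of the block was left among the 100, while 59 and 57 of the 59-contig block were. Without Reg- amputated replicate 3, 19 of the 38 passed both limits, and without any other single pool 30 to 38 did. The blocks within the same 100 contigs changed little. With 1 library left out in turn, 38 contigs stayed together each time and 58 or 59 in the other block, which contig5039 left without Reg+ uncut replicate 3 and without Reg- amputated replicate 1. The sizes were 38 and 59 without Reg- amputated replicates 1 and 3 together, and also without all 3 Reg- amputated libraries.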

How the data were processed

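Per the labels' protocols, total RNA from pools of 3 worms was made into TruSeq libraries and sequenced on an Illumina HiSeq. The deposited tables give, per the file headers, contig length, counts of total and unique gene reads, and RPKM. These counts are whole numbers, and the headers record no normalization of them by the authors. The deposited RPKM equal total reads over length and column sum to within 0.0078 and were not used further. The sources used here name no aligner or counter.

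CPM were total reads over the column sum. The members and lists were chosen with earlier results of these data known. Named contigs are ranks 1 to 10, the 3 with most reads, the 3 most typical of each block, and the last 2 members with the next 2 contigs; others are marked where they appear. Tests used edgeR 4.0.16 in R 4.3.3 (filterByExpr, TMM factors of 0.907 to 1.09, 1 mean per group, all 12 libraries), with DESeq2 1.42.0 as an alternative. Both the ranking and the model were tested on simulated data. For the model, simulated contigs varied independently of each other, so that test does not cover contigs that move together. Blocks were computed with scipy 1.17.1. All p-values rest on the spread among these pools alone. Except with the replicate number as a block, they treat pools as independent, although 12 of 15 same-numbered pairs had deviations correlated over 0.1.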

Additional observations from a re-analysis of the deposited data

How the results depend on the processing

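The list itself depended on its limits. Of the 100 contigs, 57 stayed with a minimum of 10 CPM, 40 with a minimum of 50 CPM (which 60 do not reach) and 50 with group means within 2-fold (which no contig of the 38-contig block meets). Between 67 and 97 stayed with no limit on group means, other pseudocounts, TMM-scaled CPM, unique reads or the median variance. Leaving out 1 library kept 58 to 93, where the 3 lowest were 58 when Reg- uncut replicate 1 was dropped, 60 when it was Reg- amputated replicate 3, and 61 when it was Reg+ amputated replicate 3. Choosing on 3 groups kept 51 without Reg- amputated and 73 to 88 without another group. The blocks kept 38 contigs and 58 or 59 contigs under all 22 alternatives, of which 5, leaving out a group or Reg- amputated replicates 1 and 3, were added after seeing the data, as were the values without Reg- amputated replicates 1 and 3 in the report. The contig that left was contig5039. Calls among members stayed at 0 in all 17 alternatives for 3 of the comparisons. For the interaction they ran from 0 to 28 with 1 library left out: 28 without Reg- amputated replicate 3, 1 (contig14523, named for this) without Reg+ amputated replicate 3 and 1 (contig105120) without Reg- uncut replicate 4. Over all contigs, these fits called 12429 of 64396, 4910 of 65367 and 3391 of 65153 in that order. Replicate numbers are shared between groups. Over the other 8154 contigs, 12 of 15 same-numbered pairs had deviations correlated over 0.1 and the others did not, from -0.235 to 0.803. All 3 exceptions involve Reg+ amputated replicate 1, and 8 of 11 libraries were closest to one of their own number. What the numbers stand for is not given in the sources used here, and whether same-numbered pools belong together was not tested. The main fit did not take the numbers as pairs and treats all pools as independent. Among the members themselves, the replicate 3 pairs and the Reg- replicate 1 pair outside Reg+ amputated had correlations of 0.904 to 0.937. Those of Reg+ amputated replicate 3 with the other replicate 3 libraries were opposite, at -0.903 to -0.856. Those of Reg+ amputated replicate 1 with the Reg- replicate 1 libraries were -0.926 and -0.929. The remaining same-numbered pairs ran from -0.213 to 0.507. With the replicate number as a block, 0 members were called in each comparison. Of all 62408 contigs, that fit called 2081 for any difference and 4787 for the interaction. It called 4889 for Reg+ amputated against uncut and 1327 for Reg- amputated against uncut. For Reg+ amputated against uncut, an unadjusted edgeR p under 0.05 was then reached by 15 members, against 0 without the block. The counts were 1 against 0 for any difference, 1 against 1 for Reg- amputated against uncut and 2 against 1 for the interaction. The share of all contigs at that unadjusted limit was not taken with the block, so nothing is read from these counts. With 3 pools a group, a spread carried by 1 pool cannot be told apart from differences between single worms.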
